A study of Mus musculus with 2 samples.

Results

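Nuclear pore proteins (nucleoporins) and the importins, exportins and Ran cycle proteins that carry cargo through the pore were compared between mouse cells differentiated for 15 days as embryoid bodies and undifferentiated cells of the same line. The members were the genes with a symbol of Nup, Kpna, Kpnb, Ipo, Xpo or Tnpo followed by a number, together with Ran, Rangap1, Rcc1, Ranbp1, Ranbp2, Tpr, Aaas, Cse1l, Seh1l, Pom121 and Ndc1. Of 18193 genes measured, 51 were members: 24 encode nucleoporins or nucleoporin-like proteins and 27 encode transport factors. None of the 51 lies on the X chromosome. No probe set of the annotation used here named Tpr, Nup35 or Nup62cl alone, so these were not analysed here. The RefSeq table lists Nup58 and Nup42 as other names of Nupl1 and Nupl2, which the symbol rule did not take; their values are given beside the members but not counted with them.

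The day 15 group was 1 array of total RNA from PGK12.1 cells after 15 days of embryoid body differentiation, a culture of aggregates in which stem cells give rise to many cell types. The undifferentiated group was 1 array of PGK12.1 cells at day 0. PGK12.1 is a female embryonic stem cell line, made from blastocysts of a 129 mother and a (129 X PGK)F1 father, and was at passage 14-18 on both arrays. Mouse embryonic fibroblasts served as feeders for the stem cells, whose medium held leukemia inhibitory factor, and feeders were depleted on gelatin before either group was prepared. The series was made to follow the X chromosome through differentiation. Each group is 1 culture of 1 line, so no value has a replicate error, no test between groups was possible and differences are described by size alone.

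The nuclear pore complex is a channel through the nuclear envelope built of many copies of each nucleoporin, arranged in an outer ring, an inner ring, a membrane ring, a central channel lined with phenylalanine-glycine repeats, cytoplasmic filaments and a nuclear basket. Importins bind cargo in the cytoplasm and release it in the nucleus when they meet the GTP form of Ran, and exportins bind cargo together with that form in the nucleus. The exchange factor Rcc1 on chromatin makes Ran-GTP and the activator Rangap1 at the cytoplasmic face of the pore ends it. Pores are assembled anew in each cell cycle, and in mouse embryonic stem cells several nucleoporins and importins have been tied to pluripotency or to lineage choice.

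Most genes of the pore and of the transport machinery had lower signal at day 15. Signals are linear intensities of 1 probe set per gene. Differences are given as log2(signal + 16) at day 15 minus log2(signal + 16) in undifferentiated cells, and folds of single genes as plain ratios of signal. Counts of genes past 2-fold or 1.5-fold use the log2(signal + 16) differences. A gene counted as above the filter when its mean over both arrays reached the median of all probe sets, a signal of about 36.5; 49 of the 51 members passed, and Nup210l and Kpna7 did not. Of the 49, 44 (89.8%) had lower signal at day 15, against 50.0% of the 11960 genes above the filter. At least 2-fold lower were 10 members (20.4%), against 8.41% of all genes, and at least 2-fold higher were 0 members, against 16.5% of all genes. At least 1.5-fold lower were 30 members (61.2%), against 21.0% of all genes, and at least 1.5-fold higher were 0, against 26.2%. The 2-fold count depended on the processing: it was 3 (6.12%, all genes 6.56%) with the mean over all probe sets of a gene, where 49.0% of members and 18.7% of all genes were still at least 1.5-fold lower, and 28 (57.1%, all genes 18.8%) with scaling on bacterial hybridization controls. The members' differences ran from -1.71 to 0.56 with a median of -0.66, where all genes had a median of 0.00052 and a range of -3.79 to 7.87.

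**Figure D1:**
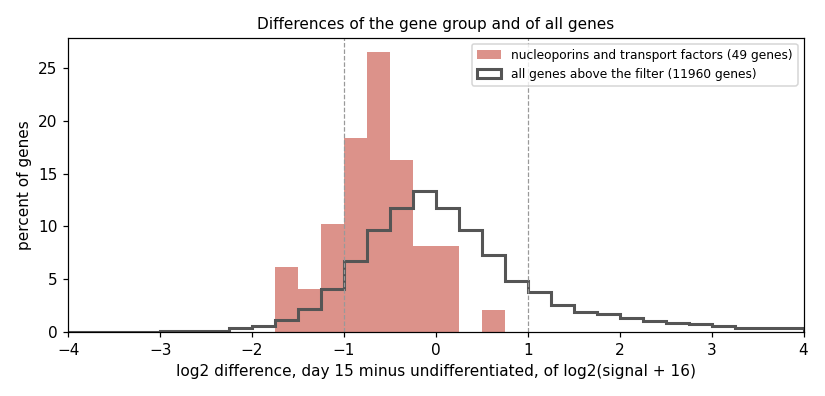
Percent of genes (vertical axis) by log2 difference, day 15 minus undifferentiated (horizontal axis), for the 49 members above the filter (filled) and all 11960 genes above the filter (line); dashed lines mark 2-fold. The members form a narrow peak below 0 around their median of -0.66, with none past the upper line; 137 of all genes lie beyond the plotted range of -4 to 4.

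The members were bright genes, and bright genes as a whole were lower at day 15. In the brightest of 3 equal bins of mean signal, which holds 44 of the 49 members, 62.0% of all genes had lower signal at day 15 and their median was -0.20, against 88.6% and -0.65 for the members. In that bin 28.2% of all genes and 59.1% of the members were at least 1.5-fold lower. The middle bin held the other 5 members, all lower at day 15, with a median of -0.95 against 0.079 for all genes there.

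Markers of the cells were read on the same arrays. All 8 embryonic stem cell markers had lower signal at day 15, with summed signals of 29127 at day 15 and 52830 in undifferentiated cells, so that these transcripts remained bright at day 15. The 6 fibroblast markers, which feeder cells also make, summed to 28944 at day 15 and 288.6 in undifferentiated cells. Among them Thy1 was level, at 144.5 at day 15 and 143.5 in undifferentiated cells. In undifferentiated cells Col1a1, Postn and Lum lay below the brightest bacterial control without target (35.6). Smooth muscle markers summed to 19462 at day 15 and 725.5 in undifferentiated cells, with Myh11 below that control on both arrays. Cardiac markers summed to 1876 at day 15 and 203 in undifferentiated cells. Tnnt2 (1229) and Actc1 (462.6) made up most of that day 15 sum. Myh6 changed little, from 84.9 in undifferentiated cells to 108.9 at day 15 (a ratio of 1.28). Nkx2-5 went from 51.2 to 75.1 (a ratio of 1.47). Visceral endoderm markers summed to 1737 at day 15 and 84.2 in undifferentiated cells. Neural markers summed to 493 at day 15 and 855 in undifferentiated cells, with 3 of 4 lower, and Sox1 higher at 126.5 at day 15, against 43.7 in undifferentiated cells. Endothelial markers summed to 257.4 at day 15 and 296.6 in undifferentiated cells, where Pecam1 was lower and the other two, Kdr and Cdh5, were higher. Leukocyte markers summed to 389 at day 15 and 77.6 in undifferentiated cells, with Ptprc below the control on both arrays. The 7 measured proliferation genes (of 8 listed) were all lower at day 15 (median -0.92, sums of 19135 at day 15 and 36746 in undifferentiated cells). The part of cell mixture or of proliferation in the members' differences was not tested, and in these bulk samples fewer cells of a type and less RNA per cell cannot be told apart. The signal of the 3′ probe set over that of the 5′ probe set of the actin control was 1.72 at day 15 and 2.34 in undifferentiated cells, and that of the Gapdh control was 0.817 at day 15 and 0.815 in undifferentiated cells.

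The outer ring, also called the Y complex, is the scaffold that shapes the pore membrane and that also sits at kinetochores in mitosis. Its 7 genes among the members were all lower at day 15 (50.0% of all genes), with a median difference of -1.02. Of these, 4 were at least 2-fold lower (8.41% of all genes). Sec13, a Y complex gene outside the symbol rule and not in that median, was level, with a difference of 0.036. With the mean over all probe sets, Nup37 and Nup43 stayed past 2-fold, while Nup133 stood at -0.96 and Nup85 at -0.93. With the mean over only the probe sets above the filter, Nup133 stood at -1.07 and Nup85 at -0.93. Nup133, which in the mouse is needed for neural differentiation of embryonic stem cells, had a signal of 1259 at day 15, against 3069 in undifferentiated cells (2.44-fold lower). Nup43, a small propeller subunit of animal Y complexes, had 676.4 at day 15 and 1591 in undifferentiated cells (2.35-fold lower). Nup85, which joins the short arm of the Y, had 804 at day 15 and 1734 in undifferentiated cells (2.16-fold lower). These 3 genes had further probe sets above the filter on the same side of 0, with differences of -1.21, -1.55 and -0.26 for Nup133, -1.33 for Nup43 and -0.77 for Nup85. Nup37, another propeller subunit, had 1003 at day 15 and 2049.6 in undifferentiated cells on its only probe set (2.04-fold lower). Nup107, a stem subunit of the Y, had 795 and 1508 (1.90-fold lower), Nup160, of the long arm, 1704 and 2744 (1.61-fold), and Seh1l, which is shared with a complex that regulates growth signalling, 1282 and 1813 (1.41-fold), each at day 15 and in undifferentiated cells. Of the 6 Seh1l probe sets above the filter, 5 were lower at day 15 and the dimmest, at 67.6 at day 15 and 46.5 in undifferentiated cells, was higher.

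The inner ring anchors the channel proteins to the scaffold. All 4 measured genes were lower at day 15 (50.0% of all genes) by similar amounts, between 1.61-fold and 1.78-fold, with a median difference of -0.76. The scaffold genes Nup188 (431 at day 15 and 765 in undifferentiated cells) and Nup205 (1319.5 at day 15 and 2122 in undifferentiated cells) stood at both ends of that range. Nup93, the hub that holds the inner ring together, had 1299 at day 15 and 2217.5 in undifferentiated cells. Nup155, whose loss causes atrial fibrillation in mice and humans, had 823 at day 15 and 1405 in undifferentiated cells, and its other bright probe set showed a larger difference (-1.22).

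The 3 central channel genes among the members had a median difference of -0.48 on their brightest probe sets. That median was -0.88 with the suffixes a, s and x left out and -0.68 with the mean over probe sets, beyond the inner ring under the same settings (-0.76 and -0.63). Nup62, the central phenylalanine-glycine protein of the channel, had 3139.9 at day 15 and 5024 in undifferentiated cells (1.60-fold lower), and its other probe sets had differences of -0.88, -1.02, -0.91 and 0.10. Its partner Nup54 had 1796 at day 15 and 2508 in undifferentiated cells (difference -0.48), the smallest difference of its 5 probe sets, since the others had -0.98, -0.88, -0.55 and -0.998. Nupl1, the third protein of that complex, had 1885 at day 15 and 2745 in undifferentiated cells (1.46-fold lower). Nup98, a channel protein that also binds genes inside the nucleus, had nearly equal signals, 1053 at day 15 and 1131.5 in undifferentiated cells, and its other probe set had 436.8 at day 15 and 443.8 in undifferentiated cells. On the cytoplasmic side the median difference of 4 genes was -0.34. Nup214, the docking site for messenger RNA export, had 628 at day 15 and 993 in undifferentiated cells (1.58-fold lower), while its partner Nup88 had 1416 at day 15 and 1519 in undifferentiated cells (1.07-fold lower). Ranbp2, the giant filament protein that binds Ran and acts as a SUMO ligase, had 1452 at day 15 and 2043 in undifferentiated cells (1.41-fold lower). Aaas, mutated in human triple A syndrome, had 794 and 907, and Nupl2, at the filaments, 124 and 178, each at day 15 and in undifferentiated cells.

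In the nuclear basket, Nup50, which binds importin alpha and helps free its cargo, had a signal of 795 at day 15, against 1940.4 in undifferentiated cells (2.44-fold lower). Its other probe sets above the filter had smaller differences of -0.38 and -0.74. Nup153, the basket anchor, which in mouse embryonic stem cells also binds developmental genes, had 2179.6 at day 15 and 3449 in undifferentiated cells (1.58-fold lower), and its 3 probe sets ran from -0.74 to -0.58.

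The membrane nucleoporins went in unlike directions. Nup210, which in mouse cells has a role in muscle and neural differentiation, had 169.7 at day 15 and 559.7 in undifferentiated cells, the largest fold among the nucleoporins above the filter (3.30-fold lower). It rests on 1 probe set, since its second one lay below the filter (26.1 at day 15 and 22 in undifferentiated cells). Ndc1, the membrane anchor of the pore, had 349.6 at day 15 and 690.7 in undifferentiated cells (1.98-fold lower), and all 3 of its probe sets lay between -1.09 and -0.82. Pom121, which brings the Y complex to the membrane as new pores form, had 1871 at day 15 and 1656 in undifferentiated cells (1.13-fold higher). Its other probe set had the opposite direction (565 at day 15 and 759 in undifferentiated cells). Nup210l, a testis-restricted relative of Nup210, had 7.4 at day 15 and 72.1 in undifferentiated cells, at least 2.03-fold lower when the dim array is held at the control bound of 35.6.

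**Figure D2:**
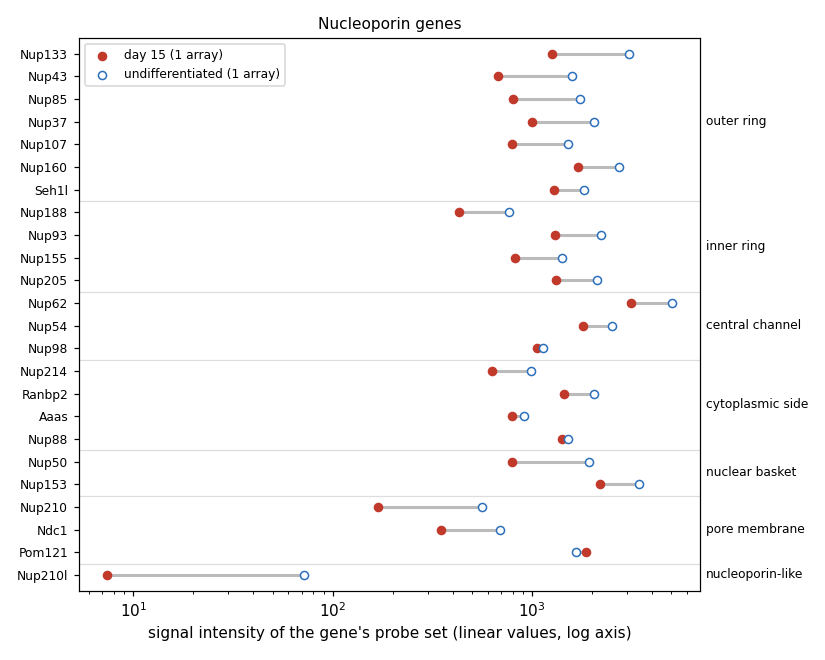
Signal intensity (horizontal log axis) of each nucleoporin gene at day 15 (filled) and in undifferentiated cells (open), 1 array each, by place in the pore. The day 15 point lies to the left for every gene except Pom121; gaps past 2-fold are those of Nup133, Nup43, Nup85, Nup37, Nup50, Nup210 and the dim Nup210l, and gaps are nearly closed for Nup98 and Nup88.

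Among the Ran cycle genes, Rcc1 had the largest difference of all members above the filter: 366 at day 15, against 1231 in undifferentiated cells (3.36-fold lower, difference -1.71) on its only probe set. Ranbp1, which helps Rangap1 act on Ran, had 5425 at day 15 and 9016.5 in undifferentiated cells (1.66-fold lower). Rangap1 itself had 963 at day 15 and 1319.7 in undifferentiated cells (1.37-fold lower) on its brightest probe set, but another had 509 at day 15 and 1275 in undifferentiated cells, a difference of -1.30, and the dimmest had 51.4 at day 15 and 30.2 in undifferentiated cells, a difference of 0.54. Ran, the GTPase, had 11188 at day 15 and 12719 in undifferentiated cells (1.14-fold lower). The 4 brightest Ran probe sets, all of a type whose probes can bind other transcripts, read between 10853 and 11188 at day 15 and between 11638 and 12719 in undifferentiated cells, while the probe set without that mark read 1110.4 at day 15 and 1955.5 in undifferentiated cells, a difference of -0.81. Whether the bright probe sets of Ran were near saturation was not tested; the bacterial Cre controls reached 16218.

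Importin alpha proteins are the adaptors that recognise classical import signals, and their subtypes differ in cargo. In mouse embryonic stem cells Kpna2 is known as a main subtype and carries OCT4 into the nucleus. Kpna2 had 4862 at day 15 and 8065 in undifferentiated cells (1.66-fold lower). Kpna3 had 1485 at day 15 and 2869.5 in undifferentiated cells (1.93-fold lower), and all 3 of its probe sets were lower (-0.94 to -0.67). Kpna1, the subtype raised in neural differentiation in mouse cells, had 733 at day 15 and 1169.6 in undifferentiated cells (1.60-fold lower), and all 5 of its probe sets were lower (-0.81 to -0.26). Kpna6 had 466 at day 15 and 732 in undifferentiated cells (1.57-fold lower). Kpna4 went the other way, with 2983 at day 15 and 2020 in undifferentiated cells (1.48-fold higher, difference 0.56), the highest difference of all members. Its dim second probe set had 47.6 at day 15 and 35.3 in undifferentiated cells. The difference of Kpna4 thus lay 1.29 above that of Kpna2, a gap between genes on the same pair of arrays. Kpna7, an oocyte subtype, read 12.6 at day 15 and 23.7 in undifferentiated cells, below the control bound on both arrays.

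The importin beta family, the receptors that pass the channel, held both directions. Of its 11 member genes, 8 were lower at day 15 (50.0% of all genes) and 2 at least 2-fold lower (8.41% of all genes). Neither of these, Ipo11 and Ipo5, passed 2-fold with the mean over all probe sets (-0.72 and -0.65). The same held with the mean over only the probe sets above the filter (-0.72 and -0.94). Ipo11, an importin for ubiquitin-conjugating enzymes, had 494 at day 15, against 1433 in undifferentiated cells (2.90-fold lower), although its second, dim probe set read 42.3 at day 15 and 39.3 in undifferentiated cells. Ipo5, which imports ribosomal proteins and histones, had 2511 at day 15 and 5229.5 in undifferentiated cells (2.08-fold lower), and its other bright probe set had 2568 at day 15 and 4579 in undifferentiated cells. Kpnb1, the partner of the importin alpha proteins, had 2412 at day 15 and 4096 in undifferentiated cells (1.70-fold lower), and its 4 probe sets ran from -0.76 to -0.21. Ipo13, which works in both directions through the pore, had 295.5 at day 15 and 532 in undifferentiated cells (1.80-fold lower). Tnpo3, the importer of SR splicing factors, had 1125 at day 15 and 1712 in undifferentiated cells (1.52-fold lower), and its other probe sets had larger differences of -1.07 and -1.06. Ipo7 (3209 at day 15 and 4834 in undifferentiated cells), which imports ribosomal proteins, histones and signalling proteins, and its relative Ipo8 (578.5 at day 15 and 817 in undifferentiated cells) were 1.51-fold and 1.41-fold lower at day 15.

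The remaining importins among the members were near level. Ranbp6, an importin close to Ipo5 that the symbol rule did not take, was 1.85-fold higher at day 15. Tnpo2 had 487 at day 15 and 608 in undifferentiated cells (1.25-fold lower). Tnpo1, the receptor for RNA-binding proteins such as hnRNP A1, had 2667 at day 15 and 2384 in undifferentiated cells (1.12-fold higher), but its second probe set had the opposite direction (798 at day 15 and 1071 in undifferentiated cells). Ipo4, which imports histones, had 1813 at day 15 and 1556 in undifferentiated cells (1.17-fold higher), again with an opposite second probe set (971 at day 15 and 1126 in undifferentiated cells). Ipo9, which imports the histone H2A-H2B dimer and actin, had 1437 at day 15 and 1206 in undifferentiated cells (1.19-fold higher) and was higher on all 3 of its probe sets (0.04 to 0.36). Scaling on the bacterial hybridization controls turned Pom121, Tnpo1, Ipo4 and Ipo9 to below 0 and left Kpna4 at 0.17.

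All 6 exportin genes were lower at day 15 (50.0% of all genes), with a median difference of -0.55. Xpo4, which exports the translation factor eIF5A and in mouse cells also imports SOX2, had 155.5 at day 15, against 334 in undifferentiated cells (2.15-fold lower). It rests on 1 probe set, since its others lay below the filter, and stood at -0.73 with the mean over all probe sets. Cse1l, which returns importin alpha to the cytoplasm, had 2642 at day 15 and 4506 in undifferentiated cells (1.71-fold lower). Xpo7, a broad-range exportin prominent in red cell precursors, had 1362 at day 15 and 2039.7 in undifferentiated cells (difference -0.58). Its other probe sets above the filter had differences of -0.98 and -0.44. Xpo6, the exportin of actin with profilin, had 807 at day 15 and 1162.5 in undifferentiated cells (1.44-fold lower). Xpo5, which exports microRNA precursors, had 547.5 at day 15 and 767 in undifferentiated cells (difference -0.47). Xpo1, the main exportin for proteins with leucine-rich signals, had 4644 at day 15 and 6306 in undifferentiated cells (1.36-fold lower), and its other bright probe set had 2393 at day 15 and 4122 in undifferentiated cells.

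**Figure D3:**
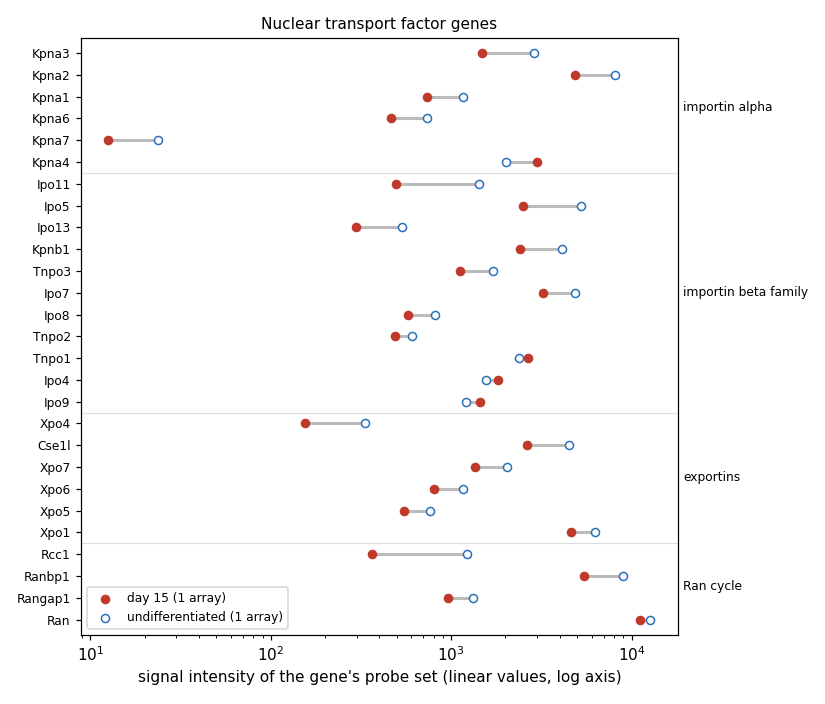
Signal intensity (horizontal log axis) of each transport factor gene at day 15 (filled) and in undifferentiated cells (open), 1 array each, by family. The day 15 point lies to the left for all but Kpna4, Tnpo1, Ipo4 and Ipo9; the widest gaps above the filter are those of Rcc1 and Ipo11.

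The members were also read by more than 1 probe set where the array had them. The log2 differences of probe sets of the same gene had a pooled SD of 0.53 around the mean of that gene. It was taken over the 5157 genes with several probe sets above the filter, and covers probe behaviour and not variation between cultures. Of the 109 member probe sets above the filter, 97 had lower signal at day 15. Several of these read the same gene, and the same share over all probe sets was not counted. Among the 31 members with several such probe sets, all were lower for 22 (71.0%), all were higher for 2 (Ipo9 and Kpna4) and 7 (22.6%) held both directions. For all 5157 genes with several probe sets the shares were 33.7% all lower and 30.1% with both directions. Differences between places in the pore, such as the outer ring (-1.02, 7 members) against the cytoplasmic side (-0.34, 4 members), were not tested.

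**Figure D4:**
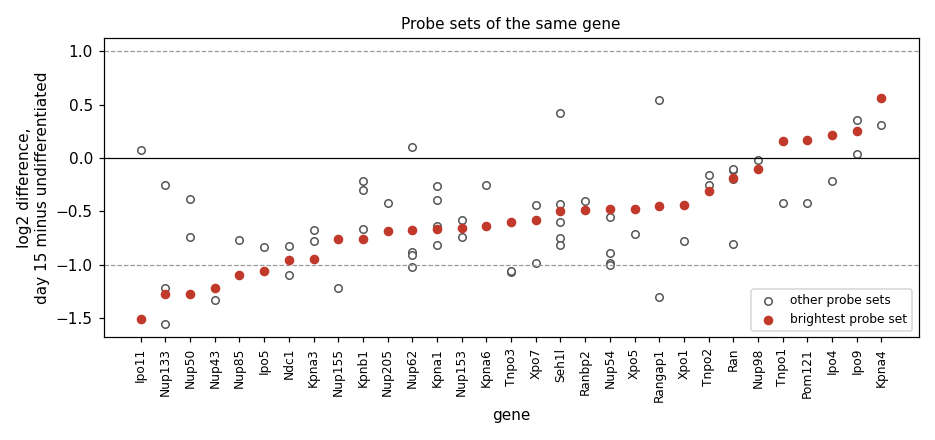
Log2 difference, day 15 minus undifferentiated (vertical axis), of every probe set above the filter for the 31 members that have several; the filled point is the brightest probe set, used for the gene, and dashed lines mark 2-fold. Most points lie below 0, Ipo9 and Kpna4 lie above it on all probe sets, and Ipo11, Rangap1, Seh1l, Nup62, Tnpo1, Pom121 and Ipo4 straddle it.

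Other genes of nuclear transport and of the nuclear envelope were taken from a list outside the symbol rule. All 32 measured genes of the 34 listed passed the filter; by their log2(signal + 16) differences, 7 were at least 2-fold lower and 3 at least 2-fold higher at day 15 (all genes 8.41% and 16.5%). Nxt1 (difference -0.99) and Syne2 (0.95) lay just short of these counts although their plain ratios were above 2. The 23 genes of transport and messenger RNA export had a median of -0.59, close to the members. Of these, 19 were lower (50.0% of all genes) and 0 at least 2-fold higher (16.5% of all genes). Rangrf, a Ran-binding protein, had 758 at day 15 and 1821 in undifferentiated cells (2.40-fold lower), and the exportin relative Ranbp17 had 141 at day 15 and 332 in undifferentiated cells (2.35-fold lower). Ranbp3, a cofactor of Xpo1, had 390.2 at day 15 and 881 in undifferentiated cells (2.26-fold lower), the export adaptor Alyref 1741 and 3662 (2.10-fold) and Mcm3ap, which encodes the export scaffold GANP, 623 and 1295 (2.08-fold), each at day 15 and in undifferentiated cells. Sec13, a Y complex protein shared with the vesicle coat of the endoplasmic reticulum, was level at 2089 at day 15 and 2037 in undifferentiated cells, and Ahctf1 (ELYS), which seeds pores on chromatin, had 1203.5 at day 15 and 1709.7 in undifferentiated cells (1.42-fold lower). Its second bright probe set had 506 at day 15 and 1173 in undifferentiated cells, a difference of -1.19. Ranbp6, an importin close to Ipo5, was the only one of the 23 at least 1.5-fold higher, with 192.5 at day 15 and 104 in undifferentiated cells (1.85-fold higher).

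The nuclear lamina under the pores showed both directions with large sizes. Lmna, the gene of the A-type lamins, which are scarce in embryonic stem cells, had 2441 at day 15, against 252.8 in undifferentiated cells (9.66-fold higher), and its 4 probe sets above the filter were all higher (1.19 to 3.19). The B-type lamin genes were lower: Lmnb2 had 178 at day 15 and 585 in undifferentiated cells (3.29-fold lower), and Lmnb1 had 1579 at day 15 and 3525 in undifferentiated cells (2.23-fold lower), each with a second probe set lower by more than 2-fold. The lamin B receptor gene Lbr had 3236 at day 15 and 4946 in undifferentiated cells (1.53-fold lower). Of the proteins that link the envelope to the cytoskeleton, Sun2 had 499.8 at day 15 and 240.6 in undifferentiated cells (2.08-fold higher), Syne2 195 and 93.4 (2.08-fold), and Syne1 103 and 23.9 (at least 2.89-fold), each at day 15 and in undifferentiated cells. Sun1 was level, with 1316 at day 15 and 1311 in undifferentiated cells. The other two Syne1 probe sets lay below the filter and went the other way (13.7 and 3.9 at day 15, against 29.9 and 6.4 in undifferentiated cells).

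**Figure D5:**
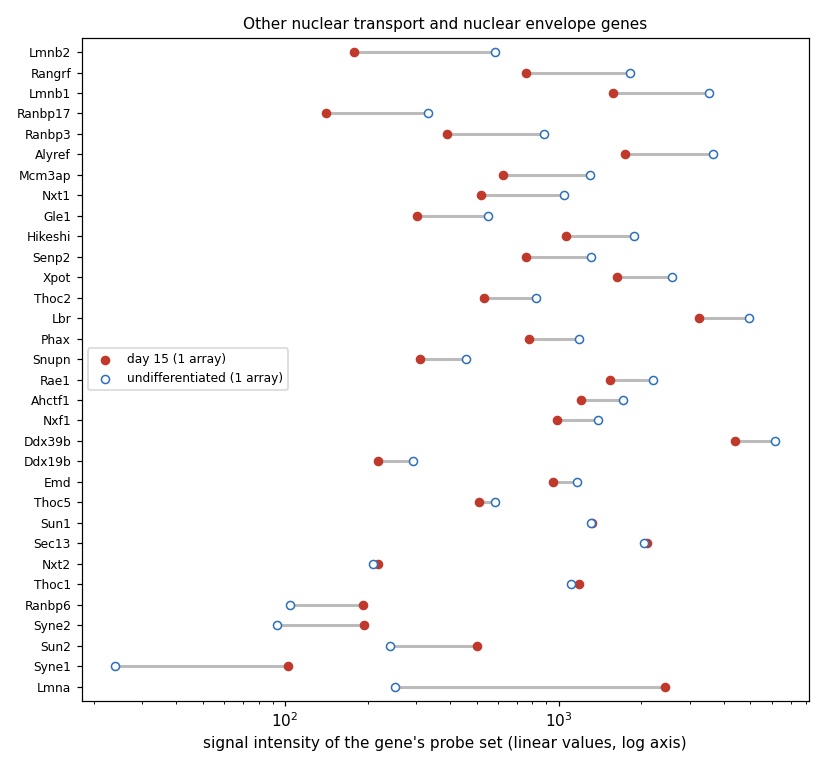
Signal intensity (horizontal log axis) at day 15 (filled) and in undifferentiated cells (open), 1 array each, of 32 other nuclear transport and envelope genes, ordered by log2 difference. Lmna at the foot has the widest gap, to the right, and Lmnb2 at the top has its day 15 point farthest to the left relative to undifferentiated cells.

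Promoters of the members, whatever the direction of their difference, were read for short motifs. Any link between the motifs and the differences was not tested. RefSeq windows of 300 bases (250 before to 50 after an annotated start, build GRCm38.p6) matched 41 of the 51 members, with 48 windows in all. Each motif was searched on both strands. Windows of the same gene can overlap, as those of Nup37 and of Ipo9 did, and a shared site was counted in each window. The member windows include that of Kpna7, which lay below the filter. The median share of G and C bases was 64.2% in member windows and 61% in windows of genes above the filter. The core GCATGCGC of the motif of NRF1, a factor of many housekeeping promoters, stood in 7 of 48 member windows (14.6%), against 5.18% of 12422 windows of genes above the filter and 2.71% of all 32851 windows. The E2F forms TTTCCCGC and TTTGGCGC, bound by cell cycle factors, stood in 2 (4.17%) and 0 member windows, against 2.04% and 0.966% of windows of genes above the filter. The ETS core CCGGAAG stood in 16.7% of member windows and 16.9% of those of genes above the filter. The other motifs were CCAAT for NF-Y (47.9% and 37.5%), the E-box CACGTG (16.7% and 9.93%) and the cell cycle element TTTGAA (27.1% and 11.9%). The searched motifs can overlap each other, short ones occur often without being bound, and none of these matches is a tested site.

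Shown are the 3 members lower by the largest fold in the Ran cycle, the basket and the membrane ring that hold an NRF1 core or an E2F form, and Ranbp1, which holds both. Capitals mark these 2 motifs alone, and sequences run 5′ to 3′ on the strand of the gene. In Nup50 the NRF1 core occurs on both strands over the same bases, so that each of its sites is a run of 10 capitals, beginning 167 and 105 bases before the start. In Rcc1 the run lies after the start, in Ranbp1 the NRF1 core begins 139 and the E2F form 37 bases before it, and in Nup210 the E2F form begins 76 bases before it.
Rcc1 (chr4:132345701-132346000, minus strand): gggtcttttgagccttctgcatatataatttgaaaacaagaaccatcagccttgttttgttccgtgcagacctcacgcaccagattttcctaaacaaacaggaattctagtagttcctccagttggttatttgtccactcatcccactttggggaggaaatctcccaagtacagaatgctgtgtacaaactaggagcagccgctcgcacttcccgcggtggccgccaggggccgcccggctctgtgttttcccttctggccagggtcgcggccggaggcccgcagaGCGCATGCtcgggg
Nup50 (chr15:84923178-84923477, plus strand): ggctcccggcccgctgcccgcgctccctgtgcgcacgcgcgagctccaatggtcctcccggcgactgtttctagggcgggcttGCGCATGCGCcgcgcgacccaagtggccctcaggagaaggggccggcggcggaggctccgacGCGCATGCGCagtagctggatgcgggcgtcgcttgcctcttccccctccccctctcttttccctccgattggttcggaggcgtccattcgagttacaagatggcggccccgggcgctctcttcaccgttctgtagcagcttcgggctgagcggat
Ranbp1 (chr16:18248645-18248944, minus strand): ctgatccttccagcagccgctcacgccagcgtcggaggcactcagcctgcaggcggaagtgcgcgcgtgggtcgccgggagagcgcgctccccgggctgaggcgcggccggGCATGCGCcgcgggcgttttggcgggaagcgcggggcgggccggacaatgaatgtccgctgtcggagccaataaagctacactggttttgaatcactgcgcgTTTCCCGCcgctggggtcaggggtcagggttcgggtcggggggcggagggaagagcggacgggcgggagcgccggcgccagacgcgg
Nup210 (chr6:91116777-91117076, minus strand): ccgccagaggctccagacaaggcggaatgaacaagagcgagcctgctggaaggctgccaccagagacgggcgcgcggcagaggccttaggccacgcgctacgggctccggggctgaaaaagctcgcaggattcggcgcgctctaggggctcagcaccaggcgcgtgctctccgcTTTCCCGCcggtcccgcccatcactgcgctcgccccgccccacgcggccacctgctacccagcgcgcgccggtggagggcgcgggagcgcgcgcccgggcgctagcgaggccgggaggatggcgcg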

How the data were processed

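The deposited values hold the signal intensity of each probe set on a linear scale, measured from total RNA labelled as biotinylated cRNA by the Affymetrix protocol, per the labels' protocols. How probes were summarised is not given in the sources used here. Both arrays shared a trimmed mean of 250.0 (2% off each end), so the authors' values came scaled. Of 45101 probe sets, 64 controls were set aside; 34945 named 1 gene through the platform annotation, 932 named several and 9160 were not listed there. Symbols were updated through RefSeq (GRCm38.p6). Each gene took its probe set with the highest mean log2(signal + 16) (Python 3.11.15, pandas 2.3.3, numpy 2.4.6). The pseudocount understates differences of dim genes. The number of arrays limits the precision. Where the dimmer signal lay below 35.6, the brightest of 15 bacterial control probe sets without target, folds are "at least", and with both below it none is given. The members, the lists and the motifs were chosen with earlier results of these data known. Every member could be named, as could genes of the other lists. Alternatives changed the filter, the pseudocount, the probe set rule and the scaling. A planned comparison of importin alpha proteins was not run, since no protein sequence was used here.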

Additional observations from a re-analysis of the deposited data

How the results depend on the processing

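The medians of the 10 role groups stayed below 0 in all settings run. The member median lay between -0.67 and -0.55, and at -0.76 with the suffixes a, s and x left out (43 members), in all settings but scaling on the 18 bacterial hybridization controls, which were on average higher at day 15 by 0.39 on the log2 scale. That scaling moved the median of all genes to -0.36 and that of the members to -1.05, with 28 members and 12 other pathway genes at least 2-fold lower (57.1% of members and 18.8% of all genes). Quantile normalization moved the median of all genes to -0.13 and left 1 member, Kpna4 (0.72), at least 1.5-fold higher. The count of members at least 2-fold lower was 3 (6.12%, all genes 6.56%) with the mean over all probe sets of a gene, which lets in probe sets below the filter, and the 3 were Nup37, Nup43 and Rcc1. It was 6 (12.2%, all genes 7.39%) with the mean over probe sets above the filter, an alternative chosen after seeing the data. In the settings other than these and the hybridization control scaling it was between 8 and 11. There the shares ran from 16.3% to 23.3% of members and from 5.70% to 11.4% of all genes. With the mean over probe sets, 4 other pathway genes were at least 2-fold lower (all genes 6.56%) and 1 at least 2-fold higher (all genes 13.0%). With a pseudocount of 64, 1 was at least 2-fold higher (all genes 12.9%). Without suffixes a, s and x, Rangap1 stood at 0.54 and Ran at -0.81. No member at least 2-fold lower changed sign in any setting. No paired analysis was possible because each group has 1 array. Depth in the sense of counts does not apply to these arrays, and no call here has a replicate check.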
